A study of Mus musculus with 10 samples.

Results

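The 200 regions described here are REST-bound sites found in both WT and 3xTg mouse cortex whose place among the shared sites fell most in 3xTg. Each WT peak outside chromosome Y was paired with the 3xTg peak that overlapped it by the most bases, and 1 pair was kept for each 3xTg peak. This gave 2489 pairs from 3006 WT and 5077 3xTg peaks. The fold enrichment of each peak, its signal at the summit over the local background, was turned into a percentile among the pairs in each list. The 200 pairs with the largest WT percentile minus 3xTg percentile were taken. The members were therefore chosen by the measured fold enrichments of both lists, and these values, the peak widths, the q-values and the summit positions are given as a description with no test.

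REST ChIP-seq was performed with an antibody to the REST C-terminus on the cortex of female mice aged 11 months. The WT mice were littermate controls. The 3xTg mice, which model Alzheimer's disease and have mixed C57BL/6J and 129Sv/Ev ancestry, carried human APP with the Swedish mutation and human tau with the P301L mutation as transgenes under the neuronal Thy1 promoter together with a mutant PS1 knock-in. Each genotype had 4 replicates, each a pool of 4 cortices, and 1 input library. A single peak list that combines the 4 replicates was used for each genotype, so no value of a peak has a replicate spread, and genotype, library and depth cannot be told apart in any difference below. The tissue was bulk cortex, so fewer cells of a type and less REST on the DNA of each cell cannot be told apart.

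REST is a zinc finger protein that binds a long DNA element, RE1, and brings the corepressors Sin3 and CoREST, with their histone deacetylases and the demethylase LSD1, to genes that neurons express. It is best known for silencing synaptic, channel and neurosecretory genes outside the nervous system. It is also found at sites without a recognisable RE1, many of them at promoters.

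The best RE1 sites in the members show what the factor's known element looks like in these regions. They are printed in the orientation of the consensus with 5 bases on either side in lower case and the 20-base site in capitals, from mm10. The first, with 1 mismatch, lay in the 3′ UTR of St6galnac5 (chr3:152821375-152821404, plus strand).
St6galnac5: cgctgGGATCTGTCCATGGTGCTGAaggac
The second lay 36800 bases from the start site of Igsf21, a synaptic adhesion gene (chr4:140283639-140283668, plus strand), and had 2 mismatches, as did an intronic site of the adhesion gene Kirrel3 (chr9:34837879-34837908, plus strand) and an intergenic site whose nearest start site belongs to Nfkbid (chr7:30434409-30434438, minus strand).
Igsf21: ttgcaGCAGCTGTCCAGGGTGCTGAcccac
Kirrel3: gcacgGGAGCTGTCCGAGGTGCTGAtgtag
Nfkbid: gtctgGGAGCTTTCCGTGGTGCTGAatggg
A further 2-mismatch site lay far from any start site, nearest to Gm33070 (chr4:110088032-110088061, plus strand), and Grin1 (chr2:25319009-25319038, plus strand), Dlgap3 (chr4:127173707-127173736, plus strand) and the intergenic site nearest to H2-D1 (chr17:35270146-35270175, minus strand) held sites with 3 mismatches.
Gm33070: accacGGAGCTATCCATGGTTCTGAaatcg
Grin1: cggcgGGTGCTGTCCGAGGTGCTGAagcgt
Dlgap3: cctttGGAGCTGTCCCGGGTACTGAaaggg
H2-D1: tcacaGGCGCTGTCCATGGTGGCAAcacct
The last pair shows members that cannot be separated by sequence. Tmem181a (chr17:6256537-6256566, plus strand) and the region nearest to Tmem181b-ps (chr17:6490762-6490791, minus strand) held the same letters.
Tmem181a: ccttgGGATCTGTCCGCGGTGCTGAacgtg
Tmem181b-ps: ccttgGGATCTGTCCGCGGTGCTGAacgtg

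A fall in rank was rarely a fall in fold enrichment. Only 8 of the 200 members had a lower fold enrichment in the 3xTg list than in the WT list, against 12 of all 2489 pairs (0.482%). Since the members were chosen by these values, nothing follows from that excess. The other 192 members had a higher value in 3xTg, by less than most pairs. The median 3xTg over WT ratio was 1.25 in the members (quartiles 1.18 and 1.31), 1.70 over all pairs (1.49 and 1.94) and 2.34 in the 200 pairs whose rank rose most (2.14 and 2.60). The ratio of every member was below the median pair, and 146 of the 200 members were among the 200 pairs with the lowest ratio.

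**Figure D1:**
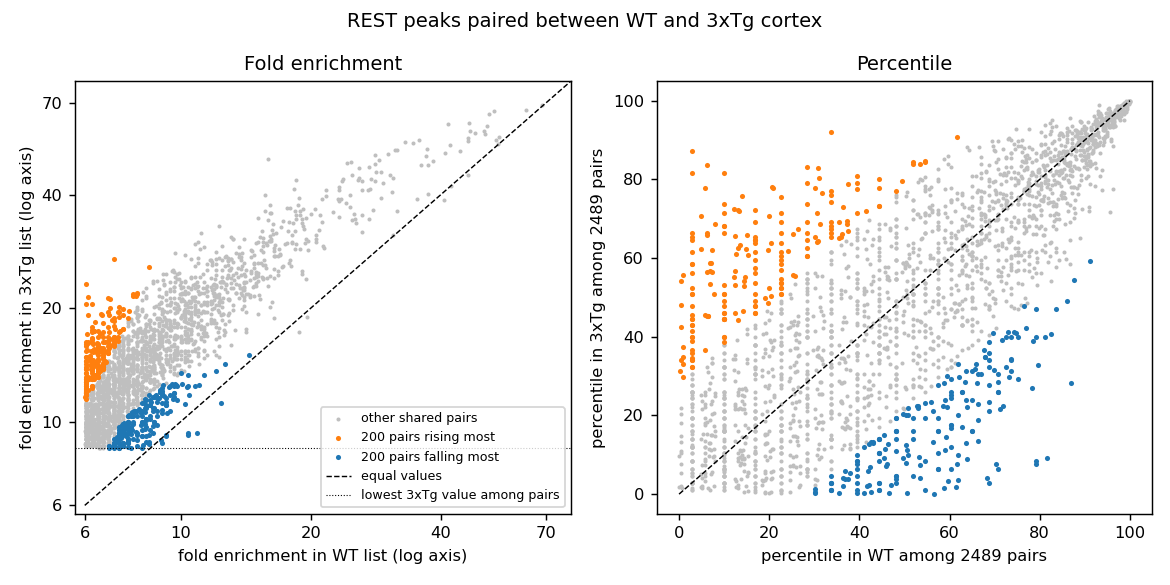
Fold enrichment (left, log axes) and percentile (right) of each of the 2489 shared pairs in the WT list (horizontal) and the 3xTg list (vertical), 1 point per pair, with the 200 falling pairs in blue, the 200 rising pairs in orange and the other pairs in grey; the dashed line marks equal values and the dotted line the lowest 3xTg value among the pairs. Most blue points lie above the line of equal values on the left and all lie below it on the right, and only 8 lie below it on the left.

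The members came from the middle of the WT list. Their WT fold enrichment ran from 6.83 to 14.4 with a median of 8.13, against 7.62 over all pairs. In the 3xTg list they ran from 8.51 to 15.0 with a median of 9.98, against 13.8 over all pairs. Their WT percentiles had a median of 57.5 and their 3xTg percentiles a median of 15.4. A total of 131 members stood above the median pair in WT and 2 did so in 3xTg, while 74 were in the lowest 10% of pairs in 3xTg. By rank in the whole lists, the median member was peak 1045 of 3006 in WT and at a rank of 3179.5 of 5077 in 3xTg.

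The lowest fold enrichment in the deposited lists was 6.0 for WT and 8.50 for 3xTg. A pair could therefore be lower in 3xTg only where its WT value was above 8.50, which held for 73 members and 942 pairs. The 12 lower pairs are 1.27% of those 942. A WT peak whose 3xTg signal lay under the floor of the 3xTg list is not among the pairs at all. There were 502 WT peaks with no overlapping 3xTg peak, with a median WT fold enrichment of 6.43, and 5 of them were above 8.50.

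**Figure D2:**
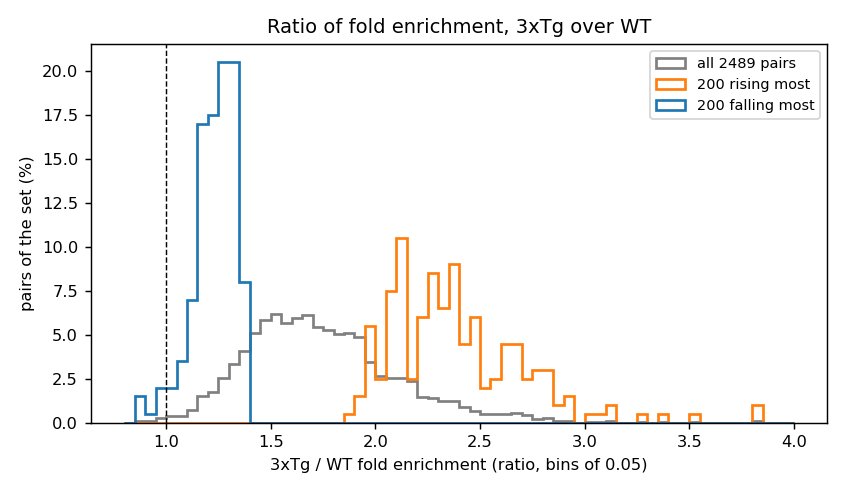
Ratio of 3xTg to WT fold enrichment (horizontal, bins of 0.05) as a percentage of the pairs of each set, for the 200 falling pairs in blue, the 200 rising pairs in orange and all 2489 pairs in grey, with equal values at the dashed line. The falling pairs reach from 0.859 to 1.39 and the rising pairs from 1.90 to 3.85, so that the sets chosen on rank do not overlap in ratio.

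The limit of 200 was not a gap in the data. The last members were the promoter shared by Cdk5, which encodes a tau kinase, and Slc4a2, with a difference of 28.71 percentile points, then the promoter of Phf14 with 28.67 and that of Srcap, a chromatin remodeller, with 28.65. The first pairs left out were an intergenic site nearest to 9430014N10Rik with 28.55, an intron of Cyth4 with 28.53 and a site near Ckb with 28.51. Part of the fold enrichments stood on a grid of about 0.189 in WT and 0.173 in 3xTg. Of the members' values, 102 in WT (51%) and 89 in 3xTg (44.5%) lay within 0.02 of a whole step, against 55.3% and 53.5% over all pairs. At the members' levels 1 step was worth a median of 2.65 percentile points in WT and 1.80 in 3xTg, so the order of members near the limit lies within 1 step of either list.

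The largest falls had WT values well above the 3xTg floor. The first member lay in an intron of Trim30a, an interferon-induced gene (chr7:104427873-104428213), where fold enrichment was 10.9 in WT and 9.35 in 3xTg and the percentile went from 81.7 to 9.20. The second lay in an intron of Usp39, a splicing factor gene (chr6:72342961-72343315), with 10.4 and 9.21. The third was an intergenic site 17878 bases from the start of Mtdh (chr15:34064686-34065002), with 10.4 and 9.32. In all of these the 3xTg value was lower, with ratios of 0.859 for Trim30a, 0.886 for Usp39 and 0.896 for Mtdh, the lowest among the members.

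Promoters followed. At Rbpj, which encodes the DNA-binding effector of Notch signalling (chr5:53589248-53589732), the values were 9.08 in WT and 8.80 in 3xTg. At the promoter shared by Ccnk, a cyclin of transcription elongation, and Setd3, an actin methyltransferase gene (chr12:108179409-108179847), they were 9.27 and 9.15. At Trappc9, which encodes a subunit of a vesicle tethering complex (chr15:73060948-73061497), they were 12.4 and 11.2. These were the only 3 promoters among the 8 members with a lower 3xTg value.

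The remaining members with a lower 3xTg value differed by very little. An intergenic site near Arl4d, a small GTPase gene, had 8.99 in WT and 8.94 in 3xTg, and the RE1 site near Igsf21 had 9.24 and 9.23. These differences, and that at Ccnk, are smaller than 1 step of either list. The other first 12 members had a higher value in 3xTg. An intron of Rpgrip1l, a gene of the ciliary transition zone, had 8.43 and 8.72. The promoter of Mterf1a, which encodes a mitochondrial transcription terminator, had 8.46 and 8.83. An intron of Dzank1 had 8.20 and 8.66, and the promoter of Tmem181a had 8.12 and 8.51, the lowest 3xTg value of any pair.

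**Figure D3:**
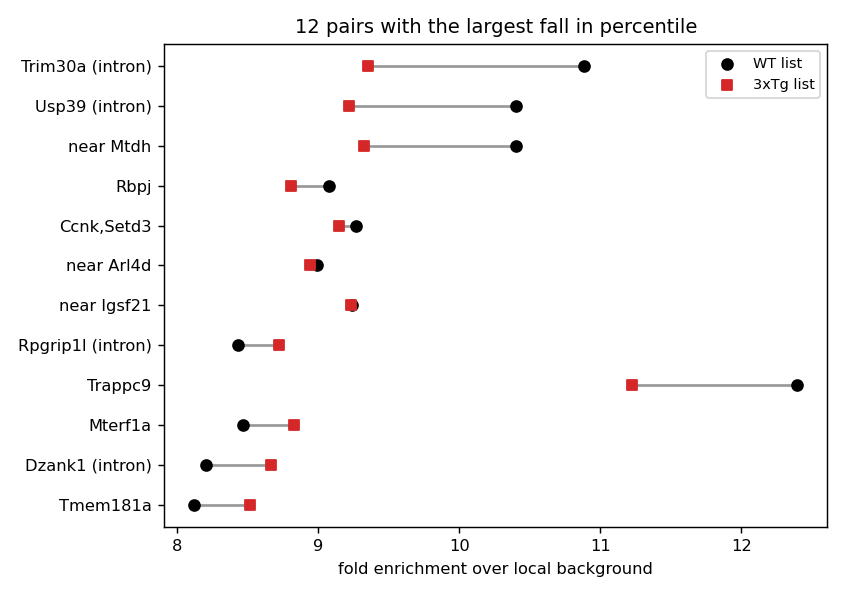
Fold enrichment of the 12 pairs with the largest fall in percentile, in order from the top, with the WT value as a black circle and the 3xTg value as a red square; names give the gene at the promoter, around the intron or nearest to the site. The 3xTg square lies left of the WT circle in 8 of the 12, from 10.9 and 9.35 at Trim30a to 9.24 and 9.23 near Igsf21, and right of it in the other 4.

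Sequence shared with other places in the genome touched the head of the order. Of the first 14 members, a number picked after the values were seen, 5 had a summit window of 200 bases with at least one 75-base stretch, the read length, that recurs exactly on the mm10 chromosomes. They were Trim30a (19.8% of the stretches), Usp39 (77.0%), Mterf1a, Tmem181a and Mterf1b (100% each). Over all members 17 had such a stretch (8.5%), near the 8.04% of all pairs, and in 11 the whole window recurred (5.5%, 95% Wilson interval 3.10 to 9.58), against 3.25% of all pairs. These 11 were Mterf1a, Mterf1b, Tmem181a, the region nearest to Tmem181b-ps, Zfp119a, Rnu3b4, Syt11, introns of Mief1, Gm3417 and Tlcd3a, and an intergenic site whose nearest start is that of Trp63. Reads from such windows cannot be placed by sequence, and these values are uncertain.

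The near-identical copies were both members in 2 cases. The 200 bases at the Mterf1a summit (chr5:3893695-3894153) were found whole in the peak of Mterf1b (chr5:4192136-4192579), and the values were 8.46 and 8.83 in WT and 3xTg at Mterf1a and 8.62 and 9.34 at Mterf1b. The window of Tmem181a was found whole in the region nearest to Tmem181b-ps (chr17:6489835-6491023), which had 8.74 in WT and 11.7 in 3xTg. The same letters thus stood at percentile differences of 56.5 and 34.0. The first member of all had its summit on a simple repeat. The 200 bases at the Trim30a summit hold an unbroken run of 97 A, shown here for the 150 bases around the summit with the bases outside annotated repeats in capitals (chr7:104427968-104428117, plus strand), and 14% of the window was G or C.
Trim30a: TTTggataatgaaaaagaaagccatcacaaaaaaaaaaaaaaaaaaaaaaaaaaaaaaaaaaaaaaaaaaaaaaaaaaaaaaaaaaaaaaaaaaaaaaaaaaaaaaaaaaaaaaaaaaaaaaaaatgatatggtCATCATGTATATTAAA

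The strongest WT sites among the members stood in the upper part of the WT order and mostly near the middle of the 3xTg order. The highest WT value was 14.4 at Rnu3b4, a gene of the U3 small nucleolar RNA family, with 15.0 in 3xTg, and its window recurs in the genome. An intron of Lhfpl5 had 12.7 in WT and 14.3 in 3xTg, and Trappc9 and Trim30a, given above, are also among the 8 highest. An intergenic site 6010 bases from the start of Kcnh2, a potassium channel gene, had 12.1 and 13.6 and held an RE1 with 4 mismatches. An intron of Chn1, which encodes a GTPase-activating protein for Rac, had 11.3 and 13.3. The promoter of Zfp661, with the start site of the mitochondrial ribosome gene Mrps5 within 5 kb, had 11.0 and 12.5. An intron of Myo5a, the gene of a cargo-carrying myosin, had 10.8 and 12.4. These 8 sites stood between percentiles 81.3 and 91.1 in WT and between 9.20 and 59.1 in 3xTg. The largest rises in ratio among the members were 1.39 near Prrxl1, a neural homeobox gene (8.46 and 11.8), 1.39 at 5430416N02Rik (8.28 and 11.5) and 1.38 in an intron of Ppp3ca, the gene of a calcineurin catalytic subunit (8.13 and 11.2).

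Promoters, which the choice did not use, held a larger share of the members than of the rising pairs, though most members lay elsewhere. A total of 86 members (43.0%, 95% Wilson interval 36.3 to 49.9) lay within 1 kb of a RefSeq start site, against 34.6% of all pairs (32.8 to 36.5) and 24.0% of the rising pairs (18.6 to 30.4). The intervals, which cover counting error over regions alone, do not overlap between falling and rising pairs and just meet between falling pairs and all pairs. With fold enrichment over 10 required in both lists, 593 pairs remained and the 200 falling most were chosen again, of which 12 were members. The promoter share of that other set was 35.0%, against 33.2% of the 593 pairs. The WT peak covered a start site in 36.0% of members, 27.5% of all pairs and 16.5% of rising pairs. Start sites on both strands lay within 1 kb of 8.5% of members, 6.75% of all pairs and 4.0% of rising pairs. By the summit, 79 members were at promoters, 67 in introns, 51 between genes, 1 in a coding exon, 1 in a 3′ UTR and 1 in a noncoding exon.

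**Figure D4:**
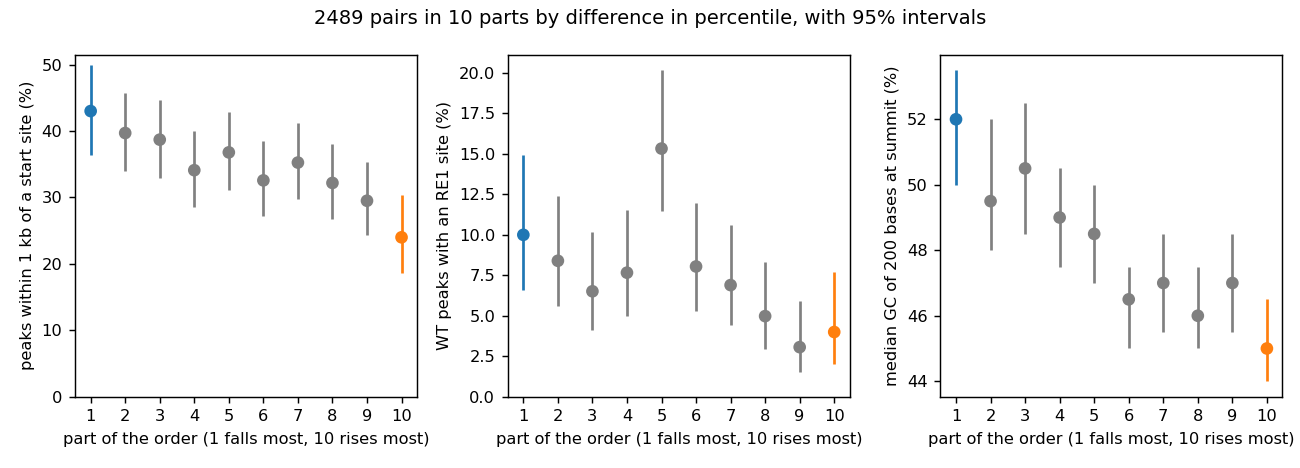
The 2489 pairs in order of WT minus 3xTg percentile, with the 200 falling pairs as part 1 (blue), the 200 rising pairs as part 10 (orange) and 8 parts of the pairs between them (grey), against the share of WT peaks within 1 kb of a start site (left), the share with an RE1 site (middle) and the median GC of 200 bases at the summit (right, axis not from 0). Points are values and lines 95% intervals; the promoter share runs from 43.0% to 24.0%, the RE1 share is highest in part 5 at 15.3%, and the GC runs from 52.0% to 45.0%.

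Base composition moved with the order. The median GC of the 200 bases at the summit was 52.0% in the members (95% interval of the median 50 to 53.5), 48.0% over all pairs and 45.0% in the rising pairs (44.0 to 46.5). The median number of CpG in that window was 5, 4 and 2. Within promoter peaks alone the median GC was 59.2% in members (57.5 to 62.5), 58.0% in all pairs (56.5 to 58.5) and 55.5% in rising pairs (51.5 to 61). Within the other peaks it was 46.0% (43.5 to 48), 45.0% (44.5 to 45) and 44.0% (43 to 45). The intervals overlap within each class. The part of base composition in the difference between the lists was not tested.

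The WT level of the members differs from that of all pairs, so both were also set beside the 1327 other pairs in the same range of WT fold enrichment, whose median was 8.38 in WT and 15.5 in 3xTg. Of these 33.2% were at promoters (30.7 to 35.7), under the interval of the members, and their median GC was 47.5% (47.0 to 48.0). An RE1 was found in 6.63% of them (5.41 to 8.10), which overlaps the members' interval.

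The upstream stretches of the first promoter members whose 150 bases before the start site lay in the peak, outside any annotated exon, and whose summit window held no recurring stretch, are shown with each CpG in capitals, since CpG counts differed between members and rising pairs. At Ccnk (chr12:108179588-108179737, plus strand) the stretch held 8 CpG, at Trappc9 (chr15:73061205-73061354, minus strand) 7, and at Gorasp2, a Golgi stacking gene (chr2:70661359-70661508, plus strand), 20.
Ccnk: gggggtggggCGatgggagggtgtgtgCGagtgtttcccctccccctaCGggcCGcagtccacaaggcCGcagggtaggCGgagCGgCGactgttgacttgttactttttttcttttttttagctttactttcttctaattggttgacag
Trappc9: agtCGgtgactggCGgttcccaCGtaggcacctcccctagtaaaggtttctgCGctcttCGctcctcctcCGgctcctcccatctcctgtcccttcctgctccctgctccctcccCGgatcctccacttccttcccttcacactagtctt
Gorasp2: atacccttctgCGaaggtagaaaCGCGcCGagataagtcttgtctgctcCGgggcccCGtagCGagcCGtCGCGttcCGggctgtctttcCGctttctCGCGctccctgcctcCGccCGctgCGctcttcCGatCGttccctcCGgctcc
The Gorasp2 values were 8.32 in WT and 9.15 in 3xTg.

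An RE1, allowing up to 5 mismatched letters of 20 and searching both strands, was found in 20 members (10%, 6.57 to 14.9), in 7.51% of all pairs (6.54 to 8.62) and in 4.0% of rising pairs (2.04 to 7.69). Within 200 bases centred on the WT summit the shares were 9.0%, 6.15% and 2.0%. The intervals of members and all pairs overlap. The site lay in the 3xTg peak as well in all 20 members, and within 50 bases of the WT summit in 17. Along the order of the pairs the share was lower toward the rising end, at 3.07% in part 9 and 4.0% in part 10, but did not fall evenly. It was highest, at 15.3%, in the part where the percentile difference was near 0, which also held high fold enrichments in both lists. Outside promoters 12 of 114 members had an RE1 (10.5%, 6.13 to 17.5), against 5.84% of all such pairs (4.80 to 7.09) and 1.32% of such rising pairs (0.362 to 4.67). At promoters the shares were 9.30%, 10.7% and 12.5%, with overlapping intervals. The share of members with an RE1 was 18% with up to 6 mismatches, against 15.0% of all pairs. It was 16.5% when the members were taken by the ratio of fold enrichments. That compares with 7.51% of all pairs and 6.0% of the pairs rising most by the ratio, a wider gap than in the main ranking.

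The values at the RE1 members with few mismatches are given as a description. St6galnac5, which encodes a sialyltransferase of gangliosides, had 9.08 in WT and 11.7 in 3xTg. The Nfkbid site had 8.32 and 10.9, the Gm33070 site 7.38 and 9.32, the Kirrel3 intron 7.38 and 9.84, and the H2-D1 site 9.64 and 11.6. The 3xTg value was the higher in each. Among the 20, only the site near Igsf21 was lower in 3xTg.

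Short motifs were searched on both strands in the 200 bases at the summit. The left arm of RE1, TTCAGCACC, which is part of the long element, was in 10 members (5.0%), 4.34% of all pairs and 1.0% of rising pairs. The right arm, GGACAGCGC, was in 2 members (1.0%), 1.69% of all pairs and in none of the 200 rising pairs, which allows up to 1.88% by the Wilson interval. The SP and KLF box GGGCGG was in 24.0% of members, 17.4% of all pairs and 11.0% of rising pairs. The AP-1 element TGANTCA ran the other way, with 8.5%, 11.2% and 16.5%. The NFY box CCAAT was in 26%, 26.2% and 27.0%. A match is a string of letters in the window and not a bound site.

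Genes of the pathways REST is best known for were few in the members and in all pairs. Of 448 genes in 13 lists of neuronal, REST cofactor, stress, Alzheimer and housekeeping genes and 6 lists of brain cell type markers, 7 members had a listed gene with a start site within 5 kb (3.5%), against 67 of all pairs (2.69%) and 4 of the rising pairs (2.0%). By that distance, no member was at a listed gene of potassium, sodium or calcium channels, inhibitory transmission, neuropeptides, the axonal cytoskeleton, neural transcription factors or housekeeping. The member 6010 bases from the start of Kcnh2, a listed potassium channel gene, lay just outside it. All pairs held few regions at these lists, with 4 at voltage-gated and 1 at other potassium channels, 5 at sodium and calcium channels, 4 at inhibitory transmission, 5 at neuropeptides, 2 at the cytoskeleton, 6 at neural transcription factors and 3 at housekeeping genes, so that an absence from 200 members cannot be read as a difference. None was at a marker of neurons, astrocytes, oligodendrocytes, their precursors, microglia or vessels, and over all pairs only 2 neuronal and 1 oligodendrocyte regions were.

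At the postsynapse, 2 of the 5 pairs at listed glutamate receptor and scaffold genes were members. Over all lists 7 of the 67 pairs at a listed gene were members and 4 were rising pairs, while each set holds 200 of the 2489 pairs. Counts this small, here and for the lists below, cannot be read as a difference. At Grin1, the obligatory NMDA receptor subunit (chr2:25318240-25319538), fold enrichment was 8.28 in WT and 9.85 in 3xTg, a fall of 44.7 percentile points. At Dlgap3, a scaffold of the postsynaptic density (chr4:127173479-127174057), it was 9.54 and 12.6, a fall of 31.9 points. Both held an RE1 with 3 mismatches, printed above. In both genes the level was higher in 3xTg.

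At the presynapse, 2 of the 12 pairs at listed vesicle release genes were members. Synj1, a lipid phosphatase of vesicle recycling that shares its promoter with 4930404I05Rik (chr16:91011144-91011781), had 9.76 in WT and 12.5 in 3xTg and an RE1 with 5 mismatches. Syt11, a synaptotagmin (chr3:88771163-88771852), had 7.66 and 10.4 in a window that recurs in the genome. The promoter of the complexin gene Cplx3, which is in no list, had 7.45 and 9.62 with an RE1 of 5 mismatches.

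Among REST cofactors, 1 of 9 pairs was a member, at Sin3a, the scaffold of the histone deacetylase complex that REST recruits (chr9:57072721-57073914), with 8.70 in WT and 11.6 in 3xTg. Dusp1, an immediate early phosphatase of MAP kinases (chr17:26508595-26509131), was the member among 6 pairs at stress genes, with 7.42 and 9.35. Cdk5 (chr5:24423429-24424407) was the member among 4 pairs at Alzheimer genes and had 9.13 in WT and 12.5 in 3xTg, so that a fall from percentile 69.6 to 40.9 went with a ratio above 1. Counting summits inside gene bodies added introns of Nrxn3 (7.91 and 9.20), Bsn (8.96 and 11.97), Ntrk3 (7.56 and 10.01) and Rbfox1 (9.08 and 11.2). By that count members were 3 of 15 pairs at glutamate genes and 3 of 19 at vesicle genes. They were 1 of 9 at neuropeptide genes and 1 of 13 at neural transcription and RNA-binding genes. Rising pairs were at 3 inhibitory, 2 sodium and calcium channel, 1 vesicle and 1 neural transcription or RNA-binding regions.

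Some other promoter members are described here by the role of their gene. They were picked after their values were seen, from no fixed list, and no enrichment of any role was tested. Genes of autophagy were Atg10 (8.45 in WT and 9.24 in 3xTg), which encodes the enzyme that conjugates the product of Atg12 to that of Atg5, Atg5 itself (8.13 and 10.4), and Atg13 (7.56 and 9.50), a subunit of the initiating kinase complex whose promoter is shared with Harbi1. Genes of chromatin were Hmg20b (7.16 and 8.86), a subunit of the LSD1 and CoREST complex, Phf12 (7.50 and 9.21), which is associated with Sin3, the histone chaperone Asf1a (7.75 and 8.98), the acetyltransferase Kat6b (6.83 and 8.60) and Srcap (6.83 and 8.63). The chaperone Hsp90aa1 had 8.32 and 9.67. Clock genes were Nr1d1 (7.66 and 9.30) and Tef (8.28 and 10.6). All of these were higher in 3xTg, as were 99.5% of all pairs, and had ratios below the median pair, as did every member. Introns of Prickle2, a planar polarity gene, and of Rabgap1l each held 2 members.

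The members were spread over the autosomes. Against 200 of 2489 pairs in all, chromosome 17 gave 13 of its 108 pairs (12.04%) and chromosome 6 gave 16 of 139 (11.5%). Chromosome 19 gave 2 of 77 (2.60%) and chromosome X none of 24. With so few pairs on chromosome X, the absence there cannot be read as a difference. Members were somewhat narrower than all pairs, with a median width of 555 bases in WT and 965 in 3xTg against 626 and 1084. The rising pairs were about as narrow, with medians of 564.5 and 988.5. The WT summit lay in the 3xTg peak in all 200. The summits were a median of 43.5 bases apart, against 33.0 over all pairs and 39.5 in the rising pairs.

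The rising pairs show the opposite end. The largest rises were in an intron of Kansl1 (6.05 in WT and 23.1 in 3xTg), at the promoter of Ppfia2, a presynaptic scaffold gene (6.05 and 20.5), near Particl (6.11 and 21.4), in an intron of Sipa1l1 (6.11 and 19.2), near Ets2 (6.24 and 20.5) and at the promoter of Abhd14a and Abhd14b (6.06 and 17.1). All of these sat close to the floor of the WT list. The 4 pairs lower in 3xTg that were not members were at the promoters of Snap25 and Cacng2 and at intergenic sites nearest to Smim17 and 1700049L16Rik, with WT values of 18.8 to 46.1, where a lower value moved the percentile less.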

How the data were processed

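Per the study's methods, the authors sequenced single-end 75-base reads, used STAR to align them to mm10 and MACS without its model to call peaks, kept fold enrichment over 5 and q under 0.01, and removed blacklisted regions. GEO's processing notes name BWA as the aligner, which was not settled. How reads with several matches were treated is not given in the sources used here. The authors deposited 1 list per genotype, whose columns include a score, a fold enrichment (a ratio), a q-value as −log10, and a summit. The score was not used.

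Computations used Python 3.11.15 with pandas 2.3.3, scipy 1.17.1 and pysam 0.24.0, and were tested on simulated data. Tied percentiles took the mean rank. Sequence and curated start sites came from GRCm38.p6 RefSeq. Genes are those with a start site within 5 kb of the WT peak, or else the nearest. The regions named are the 12 largest falls, the 8 highest WT values, 3 on either side of the limit, the 8 RE1 sites with fewest mismatches (ties by WT fold enrichment), the 3 extreme ratios at either end, those at listed genes and the 6 largest rises. Other named regions were picked from their values. The members, the lists and the rule were chosen with earlier results of these data known.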

Additional observations from a re-analysis of the deposited data

How the results depend on the processing

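No paired analysis was possible because each list pools the 4 replicates, and no replicate could be left out. Depth per library is not in the lists, and the list floors limit what a pair can show. Of the 200 members, 146 to 164 were kept when pairs were ranked by q-value, by percentile among all peaks or by the ratio of fold enrichments, or had to overlap by 50%, and 200 were kept with q under 1e-05, with chromosome Y or with several WT peaks per 3xTg peak. With fold enrichment over 10 in both lists 593 pairs remained and 12 members were kept, since only 17 members had a WT value over 10. Under that limit the 200 pairs falling most were chosen again among the 593, so most of them are not the members described here. Of these 200, 4 were lower in 3xTg, 35.0% were at promoters against 33.2% of the 593 pairs, and 17.5% had an RE1 against 13.2%. The RE1 share was 16.5% when ranked by the ratio, against 7.51% of all pairs and 6.0% of the rising pairs, and the cause was not tested. It was 18% at up to 6 mismatches, against 15.0% of all pairs, as more letters match. Over the other alternatives the RE1 share was 8.0% to 12%, the promoter share 39.5% to 48.5% and the median GC 50.5% to 53.5%. Changed definitions moved all pairs as well. Within 3 kb the promoter share was 48.5% against 39.7% of all pairs, and by the WT summit 39.5% against 32.5%. An RE1 was in 12% against 8.64% over the whole 3xTg peak, and in 8.0% against 5.99% at up to 4 mismatches. Leaving out the members with a recurring stretch, an alternative added after seeing the data, left 6 lower in 3xTg, 43.7% at promoters and 9.84% with an RE1.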
